A study of Mus musculus with 30 samples.

Results

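The genes described here are 10 genes of glucose uptake, glycolysis and lactate metabolism, several of which have a general form and a form made in germ cells of the testis. They were taken by gene symbol, as Ldha, Ldhb, Ldhc, Pgk1, Pgk2, Gapdh, Gapdhs, Slc2a1, Slc2a3 and Hk1, and all 10 were found among the 20889 symbols of a deposited expression table of postnatal mouse testis cells. RNA came from C57BL/6 mice or from GFP mice, whose strain background is not given, with no treatment named in the labels. Cells were taken on the day of birth (P0) or 7, 12 or 14 days later (P7, P12 and P14). Cells positive for THY1, a surface protein used to enrich spermatogonial stem cells, or for KIT, a receptor that marks differentiating spermatogonia, were taken with magnetic beads, while cells of OCT4-GFP mice (P0 and P7) and ID4-GFP mice (P7), whose GFP reports genes of early germ cells, were sorted by fluorescence. One column carries the label P7 VASA THY1, but the protocol names sorting of VASA-GFP cells at P0 only, so the age behind that column is uncertain. The table has 11 columns with 1 value per gene: P0 THY1, P7 THY1, P12 THY1, P7 KIT and P12 KIT stand for 2 libraries each and the other 6 columns for 1 library each. The strain background of the GFP mice and the number of animals pooled per library are not given in the sources used here.

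Glycolysis turns glucose into pyruvate. Hexokinase (Hk1) traps glucose in the cell, glyceraldehyde-3-phosphate dehydrogenase (Gapdh, and Gapdhs in sperm) and phosphoglycerate kinase (Pgk1, and Pgk2 in sperm) act in the middle of the pathway, and lactate dehydrogenase converts pyruvate and lactate into each other. The lactate dehydrogenase subunits are Ldha, typical of tissues that make lactate, Ldhb, typical of tissues that use it, and Ldhc, the form of spermatocytes and sperm. In the testis, Sertoli cells take up glucose and release lactate, which spermatocytes use as fuel. Slc2a1 encodes GLUT1, the widespread glucose transporter, and Slc2a3 encodes GLUT3, a transporter of high affinity.

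Values are FPKM, fragments scaled to transcript length and to library size, which gives a level per length; the very low values listed for Pgk1 and Gapdh limit comparison between genes. Columns were compared on the scale of log2(FPKM + 1), which shrinks differences between low values. A gene was counted as higher or lower at a difference of 2 or more in size (4-fold on that scale), provided the higher of both values was at least 5 FPKM. Since each column gives 1 value, differences could not be tested against replicates, and the values describe these libraries alone. In such bulk samples fewer cells of a type and less RNA per cell cannot be told apart.

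The columns were alike in scale but held different mixtures of cells. Their upper quartiles were alike, at 17.2 to 18.2 FPKM, and read depth is unknown. Rmrp, a structural RNA, took 21.6% to 41.0% of the summed FPKM in 10 columns and was listed at 0 in P7 ID4-GFP. The summed level of 5 germ cell markers ran from 732 FPKM in P0 THY1 to 2772 FPKM in P14 KIT. P14 THY1 stood apart by its late spermatocyte and spermatid genes, which summed to 2961 FPKM over 17 genes against 73.4 to 295 FPKM in the other 10 columns. That sum mixes different patterns. Meig1, Ybx2 and Crisp2 stood at 978, 376 and 334 FPKM in P14 THY1. Prm1, Prm2, Tnp1 and Tnp2 of the same list were at 1.46, 0.584, 4.93 and 0.780 FPKM there. Their highest values were in P7 THY1, at 101, 29.7, 55.0 and 37.7 FPKM. P12 THY1 and P7 VASA THY1 had the highest sums of 11 Sertoli cell genes, at 1763 and 1175 FPKM, and P7 ID4-GFP the lowest, at 20.5 FPKM. P7 THY1 had red cell genes at 976 FPKM in sum, against at most 41.9 FPKM elsewhere. Of these 7 genes only 2, Hbb-b2 and Alas2, reached 5 FPKM in P7 THY1. Klf1 and Hbb-b1 of the same list were low throughout and not highest in that column. The highest fibroblast sum, 6728 FPKM, was in P0 THY1.

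The 10 genes covered very different levels. Of them, 7 reached 5 FPKM in at least 1 column (70%), against 12269 of 20889 genes (58.7%), and Ldha, Ldhb, Slc2a1 and Hk1 did so in all 11 columns. The other 3, Pgk1, Gapdh and Gapdhs, stayed under 5 FPKM throughout and so could not be counted as different in any comparison. P14 THY1 was the highest column for Ldha, Ldhc, Pgk2 and Slc2a3, 4 of the 10 genes, whereas it was the highest column for 15.8% of the genes that reached 5 FPKM. The plot of levels by column shows these genes side by side.

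**Figure D1:**
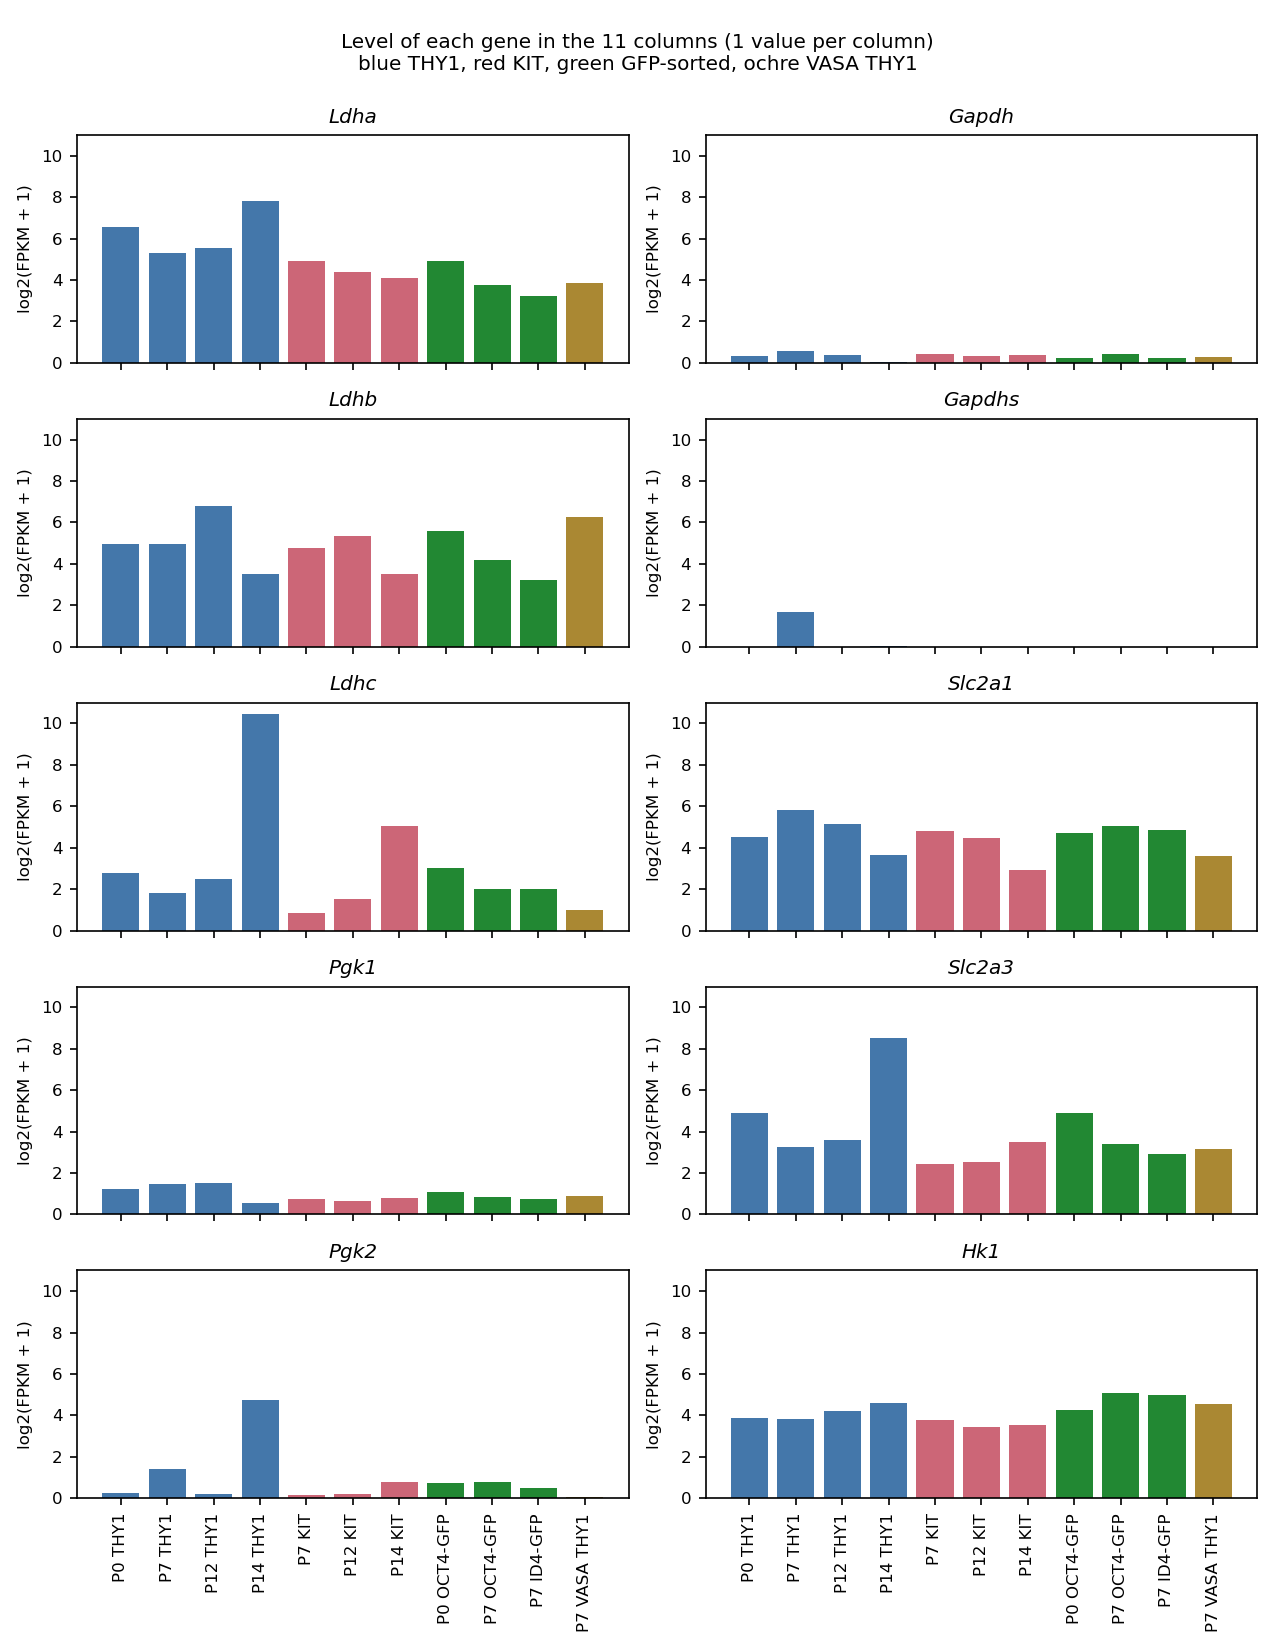
Bars give log2(FPKM + 1) of each of the 10 genes (vertical axis, same scale in each panel) in the 11 columns (horizontal axis), 1 value per column and no error bars; colours mark THY1, KIT, GFP-sorted and VASA THY1 columns. Ldhc, Slc2a3 and Pgk2 stand out in P14 THY1 (1409, 364 and 26.3 FPKM), Ldhb is highest in P12 THY1 (109 FPKM), and Gapdh is at or under 0.491 FPKM in each column.

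Ldhc, the lactate dehydrogenase of meiotic and later male germ cells, had the widest range of the 10 genes. It stood at 5.89 FPKM in P0 THY1, 2.53 in P7 THY1, 4.54 in P12 THY1 and 1409 in P14 THY1. In the KIT columns it stood at 0.805 FPKM at P7, 1.88 at P12 and 31.9 at P14, and elsewhere at 7.07 in P0 OCT4-GFP, 3.01 in P7 OCT4-GFP, 3.09 in P7 ID4-GFP and 0.996 in P7 VASA THY1. The P14 THY1 level was thus 44.2 times the next highest, that of P14 KIT, and the other 9 columns lay under 8 FPKM. Both P14 columns stood above all earlier ones.

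Ldha, the subunit abundant in most dividing cells, was also highest in P14 THY1, by a smaller margin. Its levels were 92.0 FPKM in P0 THY1, 38.3 in P7 THY1, 45.6 in P12 THY1 and 222 in P14 THY1. In KIT cells it stood lower at each later age, at 29.6, 20.2 and 15.9 FPKM at P7, P12 and P14. The GFP-sorted columns held 29.3 FPKM (P0 OCT4-GFP), 12.4 (P7 OCT4-GFP) and 8.49 (P7 ID4-GFP), and P7 VASA THY1 held 13.6. P14 THY1 was 2.41 times P0 THY1, the next highest column. Over the 10 columns without P14 THY1, its log2 level had Pearson r = 0.91 with the summed peritubular myoid genes, 0.88 with the genes of handling and RNA quality, 0.86 with the endothelial and 0.83 with the fibroblast genes, and r = -0.87 with the genes of differentiating spermatogonia. Over all 11 columns the same r values were 0.71, 0.70, 0.55, 0.80 and -0.68, in that order. With the late spermatocyte and spermatid genes r was 0.69 over 11 columns and 0.12 without P14 THY1. These values describe columns that differ in age, sort and depth together. The part of such cells, of handling or of RNA quality in the Ldha level was not tested. The list of handling and RNA quality holds Fos, Jun, Egr1, Atf3, Hspa1a, Hspa1b and Dnajb1. These are early response and heat shock genes and no measure of RNA integrity.

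Ldhb, the subunit typical of tissues that oxidise lactate, had another order. It stood at 30.6 FPKM in both P0 THY1 and P7 THY1, at 109 in P12 THY1 and at 10.6 in P14 THY1. The KIT columns had 26.7, 39.5 and 10.5 FPKM at P7, P12 and P14. P0 OCT4-GFP held 46.9 FPKM, P7 OCT4-GFP 17.2, P7 ID4-GFP 8.32 and P7 VASA THY1 75.2. P12 THY1 and P7 VASA THY1 were the highest, and P14 THY1, P14 KIT and P7 ID4-GFP were the lowest and lay close together. Those are also the columns with the highest and the lowest Sertoli cell sums, apart from P0 OCT4-GFP, which had a low Sertoli sum (76.6 FPKM) and the third highest Ldhb. Over the 11 columns Ldhb and the Sertoli sum had Pearson r = 0.83 and Spearman rho = 0.77, and r = 0.80 over 10 columns without P14 THY1. Age and sort differ between these columns as well, and the part of Sertoli cells in the Ldhb level was not tested.

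**Figure D2:**
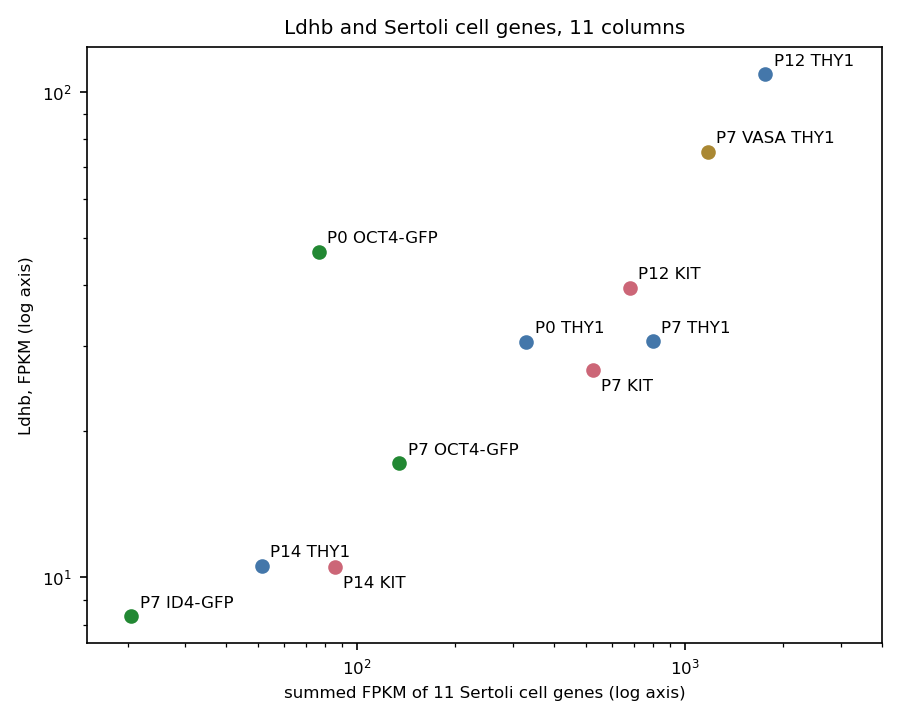
Each point is 1 of the 11 columns, with the summed FPKM of 11 Sertoli cell genes on the horizontal axis and Ldhb in FPKM on the vertical axis, both log axes. Columns with more Sertoli cell RNA lie higher (Pearson r = 0.83 on log2 values, n = 11), and P0 OCT4-GFP lies above the others of a like Sertoli sum.

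The 3 lactate dehydrogenase genes together were most abundant in P14 THY1. The summed FPKM was 128, 71.4, 159 and 1642 in the THY1 columns from P0 to P14, 57.1, 61.5 and 58.3 in the KIT columns from P7 to P14, and 83.3 in P0 OCT4-GFP, 32.6 in P7 OCT4-GFP, 19.9 in P7 ID4-GFP and 89.8 in P7 VASA THY1. A share within a column does not depend on how columns were scaled to each other. Ldha made up 71.6% of the sum in P0 THY1, 53.6% in P7 THY1, 28.7% in P12 THY1 and 13.5% in P14 THY1. Ldhb made up 23.8%, 42.9%, 68.4% and 0.644% of it. In these THY1 columns the leading subunit was Ldha at P0 and P7, Ldhb at P12 and Ldhc at P14, where Ldhc made up 85.8%. The order by age did not hold for other sorts: Ldhb led over Ldha in P0 OCT4-GFP (56.3% and 35.2%) and in P7 OCT4-GFP (52.7% and 38.1%).

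KIT cells also had a different leading subunit at each age. Ldha and Ldhb were close at P7 (51.8% and 46.7%), Ldhb led at P12 (64.2%), and Ldhc led at P14 (54.6%), with the sum of the 3 genes between 57.1 and 61.5 FPKM. Before P14 the Ldhc share lay between 1.11% (P7 VASA THY1) and 15.5% (P7 ID4-GFP). In P7 ID4-GFP Ldhc itself was at 3.09 FPKM, beside the lowest Ldha and Ldhb levels of the 11 columns. P7 VASA THY1 had the highest Ldhb share, 83.7%, against 42.9% in P7 THY1.

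**Figure D3:**
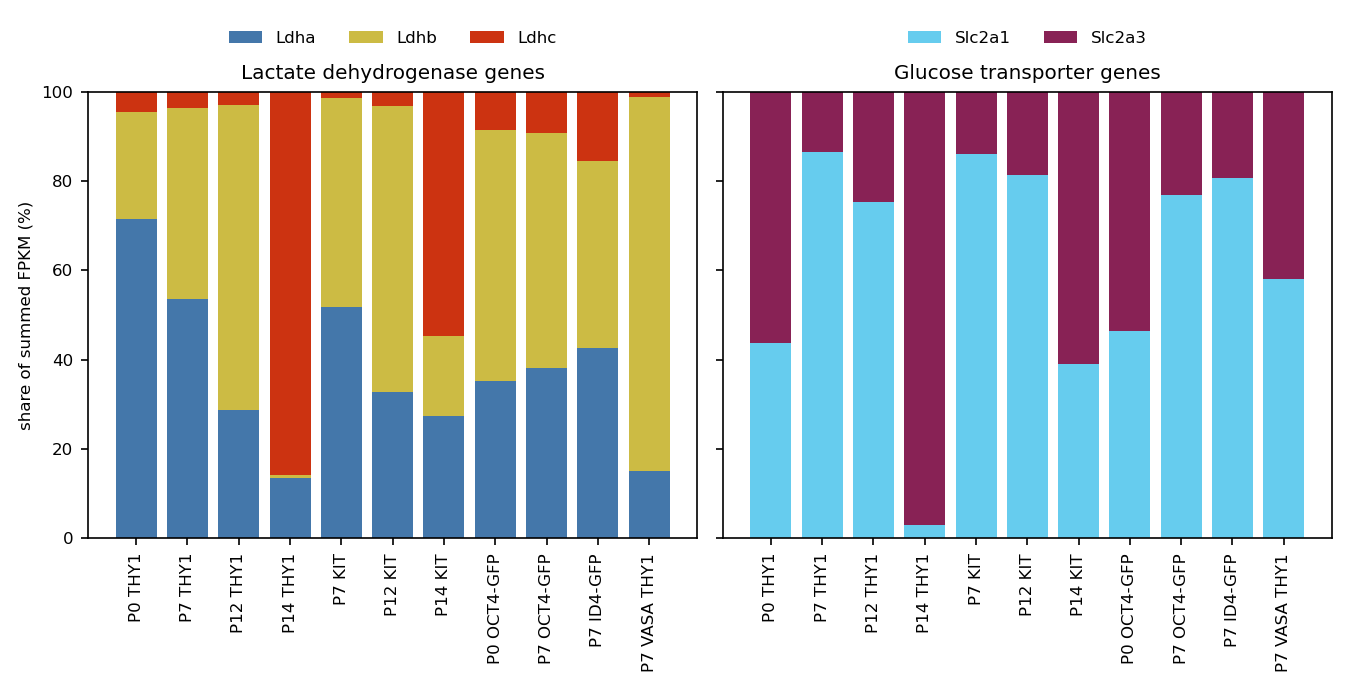
Stacked bars give the share in percent of the summed FPKM held by each gene (vertical axis) in the 11 columns (horizontal axis), at left for Ldha, Ldhb and Ldhc and at right for Slc2a1 and Slc2a3; there are no error bars. Ldhc holds 85.8% and 54.6% of the lactate dehydrogenase sum in P14 THY1 and P14 KIT, and Slc2a3 holds 96.9% and 60.9% of the transporter sum there.

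The glucose transporters exchanged rank between columns. Slc2a1 stood at 22.2, 55.6, 34.5 and 11.6 FPKM in THY1 cells at P0, P7, P12 and P14 and at 27.01, 20.9 and 6.68 FPKM in KIT cells at P7, P12 and P14. It stood at 24.9 FPKM in P0 OCT4-GFP, 31.9 in P7 OCT4-GFP, 28.0 in P7 ID4-GFP and 11.1 in P7 VASA THY1. Its highest column was P7 THY1, 1.61 times P12 THY1, and the lowest levels were in both P14 columns and P7 VASA THY1.

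Slc2a3 stood at 28.7, 8.72, 11.2 and 364 FPKM in THY1 cells at P0, P7, P12 and P14, and at 4.37, 4.76 and 10.4 FPKM in KIT cells at P7, P12 and P14. P0 OCT4-GFP held 28.6 FPKM, P7 OCT4-GFP 9.65, P7 ID4-GFP 6.69 and P7 VASA THY1 7.96. P14 THY1 was 12.7 times the next highest column, and the columns of P0, THY1 and OCT4-GFP alike, came next. Slc2a3 made up 96.9% of the sum of the 2 transporters in P14 THY1, 60.9% in P14 KIT, 56.3% in P0 THY1, 53.5% in P0 OCT4-GFP and 41.9% in P7 VASA THY1. In the other 6 columns its share lay between 13.5% and 24.6%. The P14 KIT share came with a low Slc2a1 level beside a Slc2a3 level of 10.4 FPKM.

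Hk1, the hexokinase of most tissues, varied least among the 7 genes that reached 5 FPKM. It stood at 13.7, 13.0, 17.4 and 23.3 FPKM in the THY1 columns from P0 to P14, at 12.9, 9.80 and 10.5 FPKM in the KIT columns from P7 to P14, at 18.2 FPKM in P0 OCT4-GFP, 33.2 in P7 OCT4-GFP, 30.9 in P7 ID4-GFP and 22.3 in P7 VASA THY1. The 3 KIT columns were the lowest, P7 KIT by a small margin to P7 THY1, and the P7 GFP-sorted columns the 2 highest. Its log2 level had r = 0.73 with the summed markers of undifferentiated spermatogonia (n = 11 columns, r = 0.74 over 10 without P14 THY1) and r = -0.77 with the Leydig cell genes. Hk1 made up 68.4% of the sum of Hk1 and Hk2 in P14 THY1 and 27.4% in P7 THY1, the extremes of the 11 columns.

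Pgk2, an autosomal copy that replaces the X-linked Pgk1 when the X chromosome is silent in meiosis, was at 26.3 FPKM in P14 THY1 and at 1.70 FPKM or less in the other 10 columns. Those were P0 THY1 at 0.185 FPKM, P7 THY1 at 1.70, P12 THY1 at 0.165, P7 KIT at 0.106, P12 KIT at 0.162 and P14 KIT at 0.733. The remaining columns were P0 OCT4-GFP at 0.655 FPKM, P7 OCT4-GFP at 0.733, P7 ID4-GFP at 0.406 and P7 VASA THY1 at 0.0595. P14 THY1 was 15.5 times P7 THY1, the next highest column.

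Pgk1 and Gapdh encode the general enzymes and were listed at very low values. Pgk1 ran from 0.467 FPKM in P14 THY1 to 1.87 in P12 THY1, and Gapdh from 0.0463 FPKM in P14 THY1 to 0.491 in P7 THY1. Other genes that nearly every cell uses were listed low as well, among them Ppia at 0.103 to 0.745 FPKM and Rpl10 at 0.559 to 2.08, whereas Aldoa stood at 99.9 to 281 FPKM and Eef1a1 at 741 to 1955. These comparison genes were chosen after their values were seen, and the cause of the low values was not tested. The Pgk2 share of 98.3% of Pgk1 plus Pgk2 in P14 THY1, like the shares of 6.71% to 49.2% in the other columns, therefore rests on these low Pgk1 values.

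Gapdhs, the form of glyceraldehyde-3-phosphate dehydrogenase built into the sperm tail, was listed at 0 in 9 columns, at 0.0285 FPKM in P14 THY1 and at 2.18 FPKM in P7 THY1. It was thus low where Ldhc and Pgk2 were high. Any likeness of pattern to it rests on P7 THY1 alone. The gene most like it over the 11 columns was 1700018C11Rik (r = 0.999, 8.73 FPKM in P7 THY1), and genes of late spermatids shared its column: Prm1, Prm2 and Tnp2, which encode proteins that pack sperm DNA, stood at 101, 29.7 and 37.7 FPKM in P7 THY1. In P14 THY1 these 3 genes stood at 1.46, 0.584 and 0.780 FPKM. Crisp2 and Meig1, genes of the late germ cell list that were high in P14 THY1, stood at 2.16 and 4.05 FPKM in P7 THY1. P7 THY1 also held the red cell transcripts, with Hbb-b2 at 886 FPKM and Alas2 at 83.7 FPKM. The source of the Gapdhs signal was not tested. The labels put 2 libraries behind that column, which cannot be seen apart in the table.

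**Figure D4:**
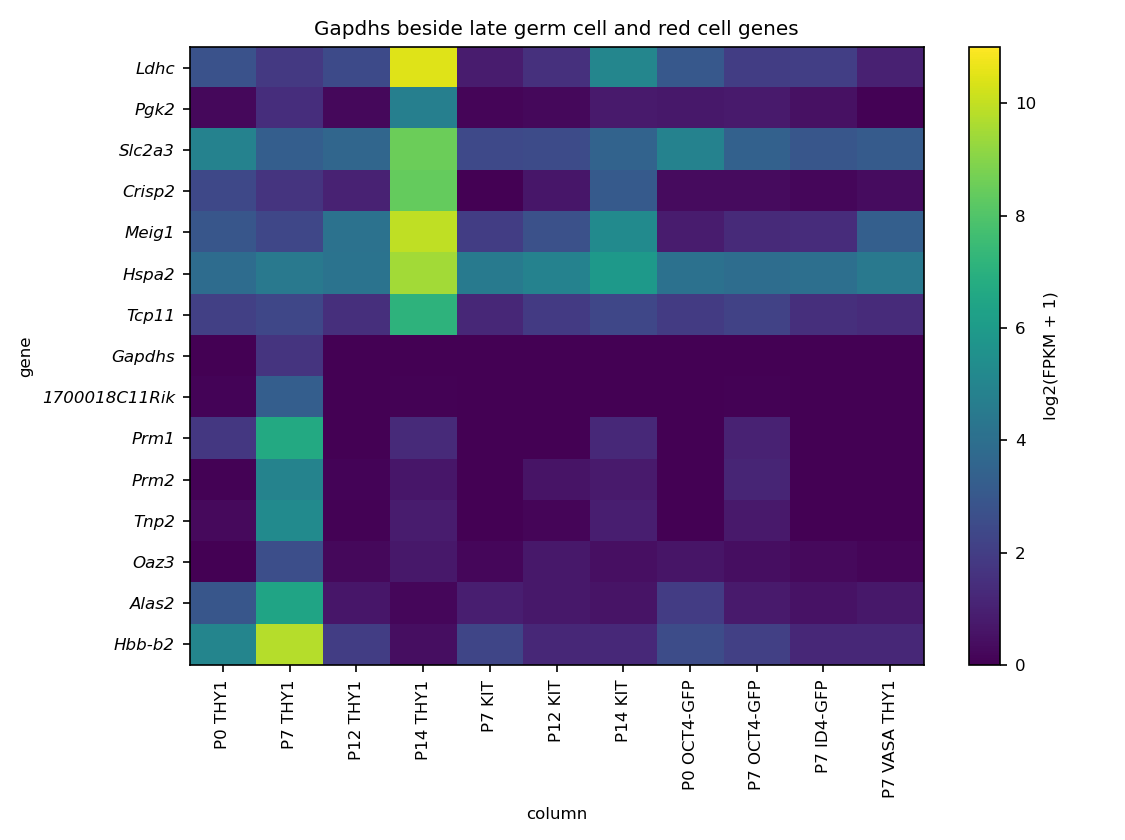
The heat map gives log2(FPKM + 1) as colour for 15 genes (rows) in the 11 columns. Ldhc, Pgk2, Slc2a3, Crisp2 and Meig1 are brightest in P14 THY1, while Gapdhs, 1700018C11Rik, Prm1, Prm2, Tnp2, Alas2 and Hbb-b2 are brightest in P7 THY1.

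The comparison of P14 with P12 THY1 cells sets the oldest THY1 column beside the one before it. Of the 10 genes, 4 were counted as higher in P14 THY1 and 1 as lower, against 3.35% and 2.79% of all 20889 genes. Ldhc was higher by 7.99 on the log2 scale, Slc2a3 by 4.90, Pgk2 by 4.55 and Ldha by 2.26. Ldhb was lower, with a difference of -3.24, and the remaining 5 genes did not reach the size rule, with Slc2a1 at -1.50 and Hk1 at 0.40. The median difference of the 10 genes was 0.22, against -0.08 over the genes that reached 5 FPKM. Beside these differences, 9 of 17 late spermatocyte and spermatid genes were counted as higher in P14 THY1 and 10 of 11 Sertoli cell genes as lower, while Acrv1 of the former list was listed at 0. Of the endothelial genes 3 of 7 were counted as lower, and of the genes of handling and RNA quality 3 of 7 (sum 324 against 384 FPKM). Of the peritubular myoid genes 1 of 6 was counted as lower. The fibroblast sum was higher, at 1326 against 439 FPKM, with 0 of 7 genes counted. The germ cell sum was 2590 against 1311 FPKM, with 1 of 5 genes counted as higher, as were 2 of 6 genes of differentiating spermatogonia. The part of these genes in the differences was not tested.

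P14 KIT cells were set beside P14 THY1 cells of the same age. In P14 KIT, 4 of the 10 genes were counted as lower and 0 as higher, against 3.16% and 0.201% of all genes. They were the genes that were high in P14 THY1, and the comparisons share that column: Ldhc differed by -5.42, Slc2a3 by -5.00, Pgk2 by -3.98 and Ldha by -3.72. Ldhb stood at 10.5 and 10.6 FPKM, and the Sertoli sum at 85.7 and 51.3 FPKM, with 0 of 11 genes counted. The late spermatocyte and spermatid sum was 205 FPKM in P14 KIT against 2961 FPKM, with 9 of 17 genes counted as lower. Also counted as lower in P14 KIT were 4 of 6 peritubular myoid genes (41.3 against 150 FPKM in sum), 4 of 7 fibroblast genes (347 against 1326 FPKM), 4 of 9 macrophage genes (3.92 against 59.3 FPKM) and 3 of 6 genes of undifferentiated spermatogonia (24.0 against 148 FPKM). Higher were 3 of 8 Leydig cell genes (591 against 158 FPKM) and 2 of 6 genes of differentiating spermatogonia. Their part in the differences of the 10 genes was not tested.

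Within KIT cells from P12 to P14, Ldhc was the 1 gene of the 10 counted as higher, from 1.88 to 31.9 FPKM (difference 3.51), and 0 were counted as lower, against 0.129% and 1.45% of all genes. Ldhb (-1.81) and Slc2a1 (-1.51) were lower without reaching the size rule. Ldha differed by -0.32 and Slc2a3 by 0.98. Of the Sertoli cell genes, 8 of 11 were counted as lower in P14 KIT, as were 3 of 6 peritubular myoid and 3 of 7 endothelial genes and 2 of 7 genes of handling and RNA quality. The late germ cell sum was 205 against 110 FPKM, with 2 of 17 genes counted as higher.

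**Figure D5:**
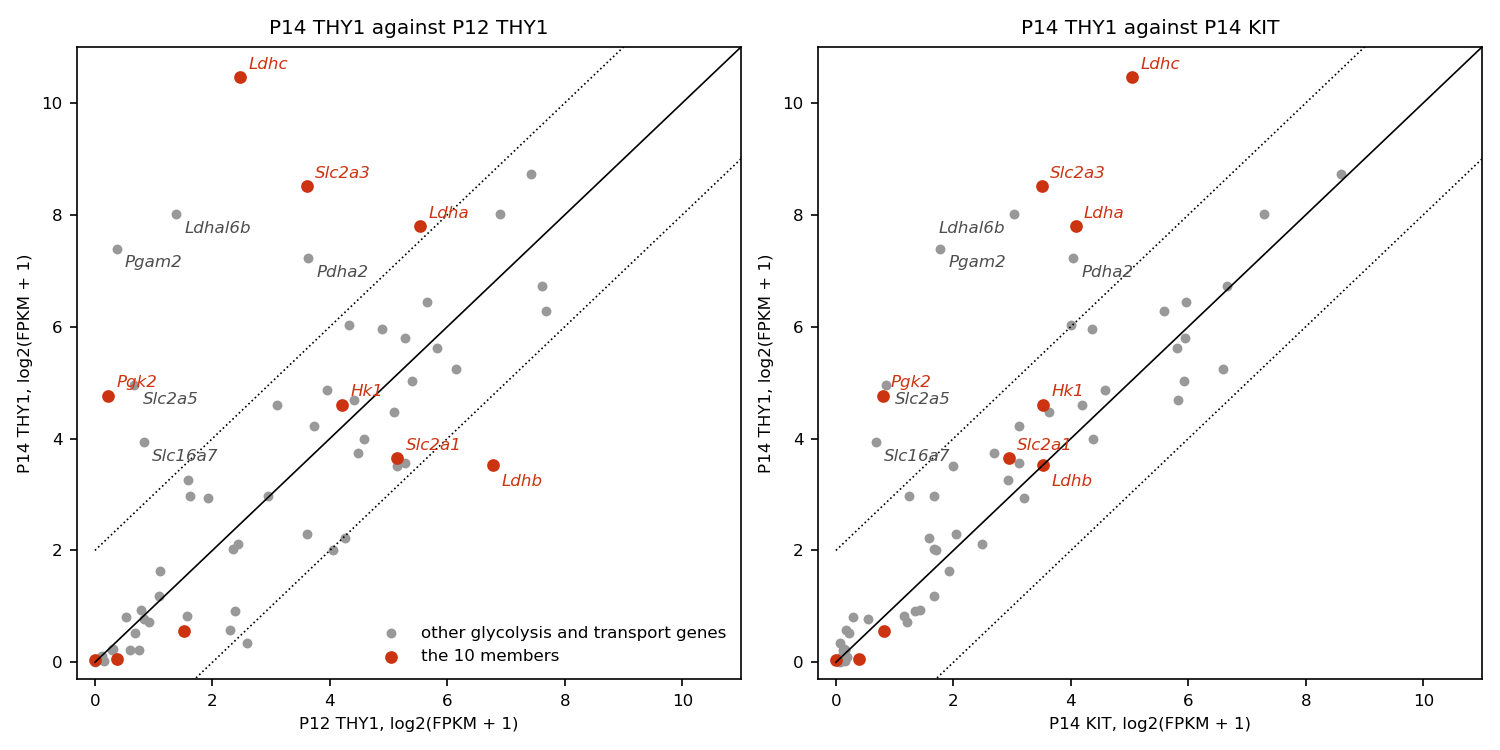
Each point is a gene, with log2(FPKM + 1) in P14 THY1 on the vertical axes and in P12 THY1 (left) or P14 KIT (right) on the horizontal axes; the solid line marks equal levels and the dotted lines a difference of 2. Ldhc, Slc2a3, Pgk2 and Ldha (red) lie above the upper dotted line in both panels together with Ldhal6b, Pgam2, Slc2a5 and Pdha2 (grey), and Ldhb lies below the lower line at left and on the solid line at right.

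KIT columns had lower values than the THY1 columns of P7 and P12 in nearly all of these genes, but at P7 this depended on the THY1 column used. Against P7 THY1, 10 of 10 genes were lower in P7 KIT, with a median difference of -0.80. Hk1 differed by only -0.009 there. Ldhc, Pgk1, Pgk2, Gapdh and Gapdhs were under 5 FPKM in the P7 and P12 columns of both KIT and THY1 cells, so their directions rest on low values. Against P7 VASA THY1, 5 of the 10 genes were lower in P7 KIT, 4 were higher (Ldha, Slc2a1, Pgk2 and Gapdh) and Gapdhs was at 0 in both, with a median of -0.07. At P12 9 were lower and Gapdhs was at 0 in both, with a median of -0.82. With columns scaled to the same sum, 9 were lower at P7 and 8 at P12. Over the genes that reached 5 FPKM, 47.1% were lower in P7 KIT and 50.4% in P12 KIT, with medians of 0.03 and -0.01. That set leaves out Pgk1, Gapdh and Gapdhs, so it is not fully like the 10 genes. None of the 10 passed the size rule at P7 or P12, where 0.359% and 0.239% of all genes did. Slc2a1 differed by -1.02 at P7 and -0.69 at P12, and Ldhb by -0.19 and -1.44. Marker lists of several cell types differed beside them. At P7 the Leydig cell sum was 1136 FPKM in KIT against 127 in THY1 cells (5 of 8 genes counted as higher), the red cell sum 5.70 against 976 FPKM, the late germ cell sum 73.7 against 295 FPKM (4 of 17 lower) and the Sertoli sum 524 against 799 FPKM, and 2 of 7 genes of handling and RNA quality were lower. At P12 3 of 6 peritubular myoid and 4 of 9 macrophage genes were lower in KIT cells, and the Sertoli sum was 680 against 1763 FPKM. Their part in the differences was not tested.

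The remaining comparisons brought 1 more counted difference. Slc2a1 was lower in P7 VASA THY1 than in P7 THY1 (11.1 against 55.6 FPKM, difference -2.23), 1 of 10 genes against 1.53% of all genes, and 0 were higher, against 0.206%. The difference was -1.83, short of the size rule, with columns scaled to the same sum. Beside it, 5 of 7 endothelial and 4 of 8 Leydig cell genes were lower in P7 VASA THY1 and the red cell sum was 2.36 against 976 FPKM, and their part was not tested. None of the 10 was counted between P0 and P7 in THY1 cells (3.38% of all genes), between P7 and P12 in THY1 cells (0.656%) or between P7 and P12 in KIT cells (0.551%). The same held for P0 OCT4-GFP against P0 THY1 (6.33%), P7 against P0 OCT4-GFP (0.129%), P7 ID4-GFP against P7 OCT4-GFP (0.316%) and P7 OCT4-GFP against P7 THY1 (2.19%). Ldha was lower in each GFP-sorted column than in THY1 cells of like age. The levels were 29.3 against 92.0 FPKM at P0, and 12.4 (OCT4-GFP) and 8.49 (ID4-GFP) against 38.3 FPKM at P7. Both OCT4-GFP differences, -1.62 at P0 and -1.55 at P7, fell short of the size rule. The ID4-GFP difference, with log2 levels of 3.25 against 5.30 in P7 THY1, meets that rule. That pair was not among the 13 comparisons and so was not counted.

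The 250 bases before the start of Ldhc, Ldha and Pgk2 are shown because these genes were high in the same column while only Ldha is a gene of general use, and because Ldha and Ldhc are neighbours on chromosome 7. Slc2a3 was also highest in that column, but no promoter sequence was available for it. Sequences are RefSeq's, build GRCm38.p6, 5′ to 3′ on the gene's strand, ending at the base before the annotated start farthest upstream: Ldhc at chr7:46861013-46861262 (+ strand), Ldha at chr7:46845554-46845803 (+ strand) and Pgk2 at chr17:40208610-40208859 (- strand). Capitals mark matches on either strand of the motifs searched: the HIF core ACGTG, the MYB core (CAACGG or TAACGG or CAACTG or TAACTG), the cAMP response element TGACGTCA and its shorter form TGACG, the GC box GGGCGG, the TATA box TATAAA and the RFX motif GTTGCCA.
Ldhc: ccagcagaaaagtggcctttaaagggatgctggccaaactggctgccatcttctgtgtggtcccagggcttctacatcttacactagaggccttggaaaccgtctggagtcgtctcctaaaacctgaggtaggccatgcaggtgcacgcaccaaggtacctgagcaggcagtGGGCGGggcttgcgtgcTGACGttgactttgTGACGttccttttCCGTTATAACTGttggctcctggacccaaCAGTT
Ldha: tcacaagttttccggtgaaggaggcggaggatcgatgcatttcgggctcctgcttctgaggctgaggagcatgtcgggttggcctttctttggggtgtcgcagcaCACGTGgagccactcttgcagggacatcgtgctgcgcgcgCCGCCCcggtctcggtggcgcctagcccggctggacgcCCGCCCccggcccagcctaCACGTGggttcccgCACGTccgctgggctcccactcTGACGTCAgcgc
Pgk2: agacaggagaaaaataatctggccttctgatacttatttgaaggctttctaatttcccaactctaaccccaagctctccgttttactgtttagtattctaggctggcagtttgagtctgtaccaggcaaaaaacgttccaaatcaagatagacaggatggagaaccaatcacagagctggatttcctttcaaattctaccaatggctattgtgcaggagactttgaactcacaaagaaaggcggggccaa

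Matches were counted in 300 bases, 250 before and 50 after the start farthest upstream. Ldhc had 3 matches of the MYB core, at -34, -28 and -5 (the last runs across the start), 2 of TGACG at -61 and -47, and 1 GC box. Of 32851 promoters of that length, 28.3% held the MYB core, 20.8% TGACG and 35.7% the GC box. Ldha had 5 matches of the HIF core, of which 4 come from 2 copies of CACGTG read on both strands, 1 of TGACGTCA at -12, which itself holds both matches of TGACG, and 3 GC boxes. The HIF core occurred in 19.6% of promoters and TGACGTCA in 1.79%. Pgk2 held none of these letters in the window. The CpG count was 30 for Ldha, 9 for Ldhc and 4 for Pgk2, with a median of 7 over all promoters. Ldha and Ldhc each have 2 annotated starts. At the second, Ldha had 1 match of TGACG, at -143, and no HIF core, TGACGTCA or GC box. Ldhc had 1 MYB core there, at -229, and no TGACG or GC box. The CpG counts at these second starts were 13 and 3. Such matches describe the letters and are no measure of binding.

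Of 24 further glycolytic enzymes in the table, 2 were counted as higher in P14 THY1 than in P12 THY1 and 1 as lower, against 3.35% and 2.79% of all genes, with a median difference of -0.21. The higher ones were Pgam2, the muscle and sperm form of phosphoglycerate mutase (168 against 0.293 FPKM, difference 7.03), and Ldhal6b, a testis gene related to the lactate dehydrogenases (257 against 1.60 FPKM, 6.63). The lower one was Pfkl, the liver form of phosphofructokinase (3.00 against 15.6 FPKM, -2.05). In P14 KIT, Pgam2 and Ldhal6b were counted as lower than in P14 THY1, by -5.62 and -4.98, and Ldhal6b was counted as higher than in P12 KIT (7.18 against 1.02 FPKM, 2.02).

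Of 12 other glucose transporters, Slc2a5, a fructose transporter, was the 1 counted in P14 THY1 against P12 THY1 (30.0 against 0.592 FPKM, 4.28). It was lower in P14 KIT than in P14 THY1 by -4.10. Among 19 genes of lactate and pyruvate transport and of pyruvate entry into mitochondria, 2 were counted as higher and 2 as lower in P14 THY1, beside the same 3.35% and 2.79% of all genes. Pdha2, the testis form of a pyruvate dehydrogenase subunit, stood at 149 against 11.4 FPKM (3.60), and Slc16a7, which encodes the lactate and pyruvate carrier MCT2, at 14.4 against 0.782 FPKM (3.11). Slc16a4 (-2.24) and Emb (-2.03), which encodes a partner protein of such carriers, were lower. Pdha2 made up 87.6% of the sum of Pdha1 and Pdha2 in P14 THY1, 57.5% in P14 KIT and 4.72% to 37.1% in the other 9 columns.

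Genes most like each of the 10 were sought by Pearson r of log2(FPKM + 1) over the 11 columns, among genes that reached 5 FPKM; columns differ in age, sort and depth together, and for genes high in P14 THY1 that column sets r. For Ldhc the nearest was Ldhal6b (r = 0.987), followed by Fabp9 and Lass3 (both 0.984). Actl9 (0.984) and Tcp11 (0.980) were near Pgk2, and Ralgps2 (0.984) was nearest to Slc2a3. The nearest to Ldhb was 2010110P09Rik (0.950), to Hk1 Ttc38 (0.975) and to Ldha Zfp54 (0.967). Between members, Ldhc and Pgk2 had r = 0.91 over 11 columns and 0.34 over the 10 columns without P14 THY1. For Ldhc and Slc2a3 the values were 0.90 and 0.51, and for Pgk2 and Slc2a3 0.87 and 0.16.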

How the data were processed

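RNA was measured by sequencing in 16 libraries of mouse testis cells, shown in 11 columns of a table; 8 bisulfite and 6 chromatin samples were not used here. Per the labels' protocols, ribosomal RNA was depleted and directional libraries were made. The authors deposited FPKM, with 1 value per gene and column; how replicates were combined or scaled is not given in the sources used here. The submitters' processing notes name CASAVA, TopHat2 2.0.9, Cufflinks 2.1.1 and mm9, without order or annotation. Depth is unknown; steps of values under 0.05 FPKM put 1 fragment's worth at 0.957 (P12 THY1) to 2.04 (P0 OCT4-GFP) times that of P14 THY1, and at 3.72 times in P7 THY1, where 14.8% of 237 low genes fitted it.

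From the deposited FPKM, log2(FPKM + 1) differences in 13 comparisons, shares, list sums and correlations were computed in Python (version 3.11.15; pandas 2.3.3, numpy 2.4.6, scipy 1.17.1); figures were drawn in matplotlib 3.10.9. The calculations were tested on simulated data. A limma fit planned for separate libraries was not run, since the table holds 1 value per group. The 10 genes, the 17 lists and the comparisons were chosen with earlier results of these data known. Named genes were the 10 genes, the 5 nearest to each in pattern and up to 4 counted genes per list and comparison. Cyct in P14 THY1 against P12 THY1 was named in addition to these. Others are said to be chosen after their values were seen, as were Prm1, Prm2, Tnp2, Crisp2, Meig1, Hbb-b2 and Alas2. Promoters were matched by symbol for 9 of the 10 genes, all but Slc2a3. Protein identity between isoforms was planned and not run. The genes nearest to Slc2a1 in pattern are not reported here. Alternatives were another pseudocount, columns scaled to the same sum, quantile normalization, other floors on FPKM, other measures of likeness and P7 VASA THY1 in place of P7 THY1.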

Additional observations from a re-analysis of the deposited data

Results flagged for a closer look

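Ldha moved in opposite directions in the THY1 and the KIT cells from P12 to P14. The log2 difference was 2.26 in THY1 cells (222 against 45.6 FPKM) and -0.32 in KIT cells (15.9 against 20.2 FPKM). Each group had 1 column per age, and the difference between these differences was not tested.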

How the results depend on the processing

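No paired analysis was possible because the table holds 1 value per group; for the same reason no replicate could be left out. Of 74 counts and summaries under alternative settings 66 stayed within the bounds used, and 685 of 690 values of single genes kept their side of the size rule. No counted difference changed sign. Signs of differences too small to be counted did turn: 16 of 40 with P7 VASA THY1 in place of P7 THY1, 13 of 130 with columns scaled to the same sum (3 of 130 without Rmrp) and 10 of 130 with quantile normalization. With the VASA column, 1 gene was counted against P0 THY1 (Ldha, -2.67) and 1 in P7 OCT4-GFP (Ldhb, -2.07). With columns scaled to the same sum, P14 KIT against P12 KIT gave 2 genes (Ldhb added, -2.09) and P7 VASA THY1 against P7 THY1 gave 0 (Slc2a1, -1.83); leaving Rmrp out of the sum, an alternative chosen after seeing the data, the former gave 2 again (Ldhb, -2.02). Scaling to the same sum moved the median of all genes by up to 0.57, for P7 ID4-GFP against P7 OCT4-GFP, and put Hk1 highest in P7 ID4-GFP. Of the 50 nearest genes 10 were shared with Spearman's rho and 20 without P14 THY1, and without that column 5 of 10 genes kept their leading marker list. The unknown depth limits values under about 1 FPKM most.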

Other observations

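Other pairs of a general gene and a testis copy were followed in the same columns. Of 11 testis copies in the table, 9 were higher in P14 THY1 than in P12 THY1, 5 of them by the size rule, with a median difference of 1.88, and 9 had their highest value in P14 THY1. Over all genes 3.35% were counted as higher there. Of the genes that reached 5 FPKM, 15.8% had their highest value in P14 THY1, and their median difference was -0.08. Cetn1, a centrin of male germ cells, stood at 212 against 1.74 FPKM, Cox6b2, a testis subunit of cytochrome oxidase, at 296 against 12.6 FPKM, and Cyct, the testis cytochrome c, at 285 against 41.9 FPKM. Also counted were Pabpc2 (44.7 against 0.0352 FPKM) and Pdha2 (149 against 11.4 FPKM). Of the 11 general partners 10 were lower in P14 THY1, 0 by the size rule, with a median of -0.61. Over all genes 2.79% were counted as lower there, and 54.2% of the genes that reached 5 FPKM were lower by any amount. The partners Rpl10 and Cycs and the copy Hspa1l stayed under 5 FPKM in all columns. They could not be counted and lie outside the set of genes that reached 5 FPKM. In P14 KIT 10 of the 11 copies were lower than in P14 THY1, 5 by the size rule, with a median of -1.71. In that comparison 3.16% of all genes were counted as lower. Of the genes that reached 5 FPKM 48.2% were lower, with a median of 0.03.

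A list of 20 targets of the hypoxia factor HIF left out the enzymes of the glycolytic steps but held regulators of glycolysis such as Pfkfb3. Of these 20, 0 were counted as higher and 3 as lower in P14 THY1 than in P12 THY1: Adm (-3.35), Vegfa (-2.85) and Pfkfb3 (-2.66). Over all genes 3.35% were counted as higher and 2.79% as lower there. The list's median difference was -0.75, against -0.08 over all genes that reached 5 FPKM.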
